A study of Homo sapiens with 4 samples.

Results

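The genes described here are 47 genes of the NF-kB pathway and of the cytokine response that it drives, of 19483 genes with a named probe on the array. They were listed by function: the NF-kB subunits, their inhibitors and kinases, the adaptors that carry the signal, the feedback proteins, the cytokines and effectors that NF-kB switches on, and the receptors and STAT3 arm of the IL-6 family. A probe was assigned to a gene by its accession, and 46 of the 47 genes had at least 1 probe (NFKB2 had none). Of these, 44 genes were measured on all 4 arrays, as were 13602 genes in all. The cells were HuCCT1, a human line from a cancer of the bile ducts inside the liver (intrahepatic cholangiocarcinoma). The cells received 30 nM of Pre-miR-376c (a synthetic mimic of mature miR-376c-3p), Pre-miR negative control, siGRB2 (a small interfering RNA against the adaptor gene GRB2) or the AllStars non-silencing siRNA, called siRNA negative control. After 24 h every culture was moved to 0.1% serum with 5 ng/ml EGF, and RNA was taken 24 h later, so the controls saw EGF too. Each of the 4 transfections was read on 1 array, and the question was which transcripts differ when miR-376c is supplied or GRB2 is silenced.

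NF-kB is a family of transcription factors that wait in the cytoplasm, bound to inhibitors of the IkB type. Signals from TNF, IL-1 or microbial receptors run through adaptors to the IKK kinase complex, which marks the inhibitor for destruction, and the freed dimer enters the nucleus. It then switches on cytokines, adhesion molecules and acute-phase proteins, together with its own inhibitors, which end the signal. IL-6, one of the cytokines made, acts back on epithelial cells through the gp130 receptor and STAT3, an axis well known in bile duct tumours.

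The value of a gene was the log2 signal minus the 75th percentile of the same array, averaged over the gene's probes, so that a difference of 1 between arrays is 2-fold. A probe counted as measured when the scanner software called it well above background on all 4 arrays. With 1 array per condition no test and no SD of a condition can be given, and the verbs below describe these 4 arrays only. The errors known are technical: the SD between the 10 spots of a member's probe was 0.026 to 0.15 (8 probes), and the error that the scanner software assigns to a log2 difference was 0.20 to 0.39. Neither covers the spread between cultures, and as RNA came from whole cultures, fewer expressing cells and less RNA per cell cannot be told apart. Each treatment was therefore set against both negative controls, and the 2 controls were set against each other.

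The array of the siRNA negative control stood apart from the other 3. On it, 12.3% of all genes and 6 of the 44 members (RELB, NFKBIA, CHUK and IRAK2 above, IKBKG and IL32 below) lay at least 1.5-fold outside the range of the other 3 arrays. For each of the other arrays that share was 0.88% to 1.05% of all genes. The part of this array in the differences from it was not tested, so the value against the other control is given beside them. For the targeted gene GRB2 the log2 values were 0.07 after Pre-miR-376c, 0.62 after Pre-miR negative control, -0.65 after siGRB2 and -0.10 after siRNA negative control. GRB2 was lowest after siGRB2, while after Pre-miR-376c it lay between the 2 controls, 0.55 below one and 0.18 above the other. GRB2 had 1 probe with 1 spot, and the scanner error of each difference was 0.20, so that the 0.18 lies within it. All 7 biliary epithelial markers were measured (KRT7, KRT19, KRT8, KRT18, EPCAM, SOX9 and CDH1), with log2 values between -1.30 and 8.48. Of the markers of other cells, 3 of 4 for leukocytes, 2 of 3 for endothelium, 1 of 3 for fibroblasts and 1 of 3 for hepatocytes were measured, with log2 values between -5.56 and -0.46.

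The starts of these genes were searched for the binding motifs of the factors involved. RefSeq promoter windows (GRCh38.p14, 250 bases before to 50 after the start) were at hand for 37 of the 47 genes, 55 windows in all. The NF-kB consensus decamer, searched on both strands, was found in 34.5% of these windows (17 genes) and in 11.3% of the 35116 windows of all genes. Among the 17 was NFKB2, which had no probe. The members were listed partly as genes that NF-kB switches on, so the higher share may follow from that choice. The STAT motif TTCNNNGAA, also searched on both strands, was found in 9.09% of the members' windows and 7.66% of all windows, with STAT3 itself holding neither motif. The 5 stretches below, of 30 bases each and 5′ to 3′ on the gene's strand, were chosen after the values were seen, from members whose values are given in full. Capitals mark the decamer.
NFKB1 (chr4:102501300-102501329, plus strand): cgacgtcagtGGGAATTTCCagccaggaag
NFKBIA (chr14:35404811-35404840, minus strand, decamer on the opposite strand): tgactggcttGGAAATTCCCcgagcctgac
NFKBIZ (chr3:101827757-101827786, plus strand): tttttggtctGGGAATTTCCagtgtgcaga
IL6 (chr7:22727117-22727146, plus strand): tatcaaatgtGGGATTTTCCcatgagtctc
IL32 (chr16:3065294-3065323, plus strand): cctgtactcaGGGAGTTTCCccagccagct
NFKB1 and NFKBIZ carry the same 10 letters, and NFKBIA carries them on the opposite strand. The mature miR-376c-3p as RefSeq lists it (GRCh38.p14, chr14:101039732-101039752, plus strand) is shown since its mimic was one of the treatments, with its seed, bases 2 to 8, in capitals.
hsa-miR-376c-3p: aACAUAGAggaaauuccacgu
A match is a description of the reference and not a measured binding site.

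As a group the members stayed close to where all genes were. The median log2 difference of the 44 members was -0.01 for Pre-miR-376c minus Pre-miR negative control (all genes -0.02) and 0.13 for siGRB2 minus siRNA negative control (all genes 0.12). With the controls exchanged it was 0.03 for Pre-miR-376c minus siRNA negative control (all genes 0.06) and -0.03 for siGRB2 minus Pre-miR negative control (all genes 0.04). The members' spread was also that of all genes, with an SD over genes of 0.34 against 0.34 in the first comparison and 0.56 against 0.55 in the second. Differences between arrays are therefore given gene by gene below.

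**Figure D1:**
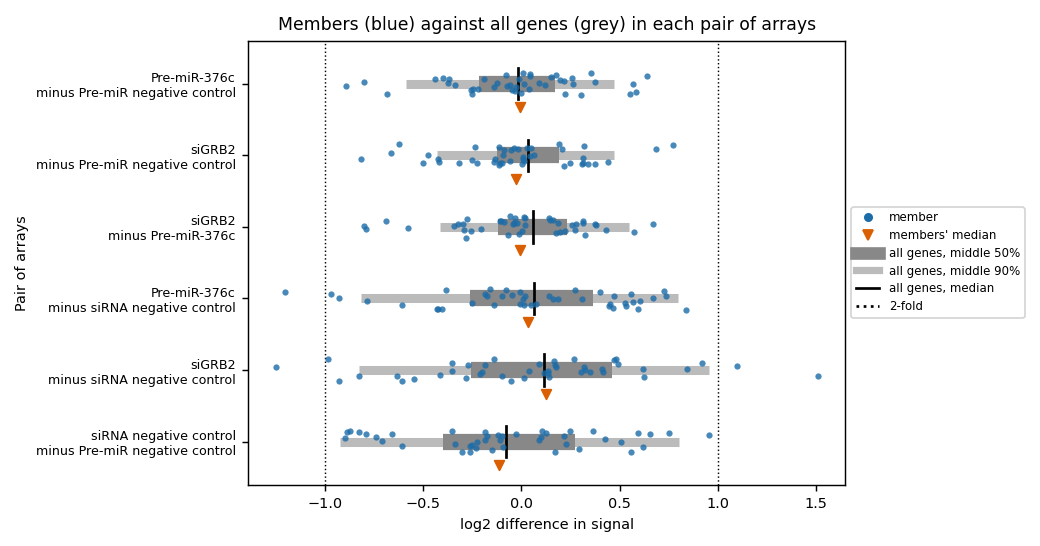
Log2 differences of the 44 members (blue points) in each of 6 pairs of arrays, beside the middle 50% and 90% of all 13602 genes (grey bars), with both medians and the 2-fold limits (dotted lines). Most members lie over the bars of all genes in every pair, and the bars are widest in the 3 pairs that hold the siRNA negative control.

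Few members passed 2-fold, at shares near or below those of all genes. None of the 44 did so in Pre-miR-376c against Pre-miR negative control (1.15% of all genes) or in siGRB2 against Pre-miR negative control (0.934%). Against siRNA negative control, 1 member did so after Pre-miR-376c (CHUK, lower; 4.59% of all genes). With siGRB2 against that control, 3 did so (IRAK2 lower, IKBKG and IL32 higher), which is 6.82% of the members and 6.75% of all genes. No member lay 2-fold above both controls or 2-fold below both, be it after Pre-miR-376c (0.323% of all genes) or after siGRB2 (0.36%). Nor did any differ 2-fold between the 2 controls (5.7%) or between the 2 treatments (0.956%).

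At the smaller limit of 1.5-fold from both controls, 4 members stood out. NFKBIZ was lower after Pre-miR-376c (1 member, 1.56% of all genes), and no member was higher (0.809%). With siGRB2, SAA2 was lower (1 member, 0.919% of all genes), and IL32 and STAT3 were higher (2 members, 1.28%). STAT3 just missed that limit after Pre-miR-376c, at 1.499-fold above Pre-miR negative control and 1.66-fold above siRNA negative control.

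In 15 members the groups did not overlap, that is, they had both treated arrays on one side of both control arrays. Lower on both treated arrays were 7 members (15.9%, against 13.4% of all genes): the inhibitors NFKBIA, NFKBIE and NFKBIZ, the kinase IKBKB, the adaptor IRAK2, PTGS2 and SOCS3. Higher on both were 8 members (18.2%, against 20.4% of all genes): NFKB1, NFKBIB, IKBKG, LIF, ICAM1, PTGES, IL32 and STAT3. Both shares lie near those of all genes. The gap between the nearest treated and control array was 0.58 for STAT3, 0.42 for NFKBIZ, 0.41 for PTGS2, 0.32 for NFKBIB, 0.25 for NFKB1, 0.22 for IRAK2 and 0.19 for NFKBIA, and at most 0.08 for the other 8. With 10 other processing settings, STAT3, NFKBIZ, PTGS2, IRAK2 and NFKBIA kept their side in every one, and the number of members on the higher side was 4 after a shift to the median or normexp background correction.

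Among the NF-kB subunits, NFKB1, the gene of p105 and its product p50, was higher on both treated arrays. Its log2 values were 2.14 after Pre-miR-376c and 1.82 after siGRB2, against 1.57 after Pre-miR negative control and 1.55 after siRNA negative control. The 2 controls differed by 0.03, and the SD between its 10 spots was 0.040 to 0.046 on each array. With Pre-miR-376c NFKB1 was thus 1.48-fold and 1.51-fold above the controls, and after siGRB2 1.19-fold and 1.21-fold. The siGRB2 differences, 0.245 and 0.270 in log2, were close to the scanner error of 0.20. After the shift to the median NFKB1 was no longer among the members higher on both treated arrays. RELB, the transactivating subunit of the non-canonical pathway, was 3.82 after Pre-miR-376c, 3.77 after Pre-miR negative control and 3.82 after siGRB2. Only siRNA negative control was set apart, at 4.43. RELA, the main transactivating subunit, lay between 0.16 and 0.49 and REL, its lymphoid relative, between -2.43 and -1.98, both with overlapping groups. The 2 probes of RELA pointed in opposite directions for Pre-miR-376c minus siRNA negative control (-0.34 and 0.37).

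Of the 5 inhibitors, NFKBIZ showed the clearest difference. NFKBIZ encodes IkB-zeta, a nuclear member of the family that helps NF-kB to switch on a set of secondary targets such as IL6 and LCN2. Its log2 value was -1.73 after Pre-miR-376c and -1.35 after siGRB2, against -0.93 after Pre-miR negative control and -0.81 after siRNA negative control. Pre-miR-376c was thus 1.74-fold and 1.90-fold below the controls, and siGRB2 1.34-fold and 1.46-fold. All 4 arrays were ordered without overlap, with the 2 controls 0.13 apart. One probe with 1 spot covered it, and the scanner error on each of these differences was 0.20.

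NFKBIA, the gene of IkB-alpha and a classical rapid NF-kB target, was 2.73 after Pre-miR-376c, 2.69 after siGRB2, 2.92 after Pre-miR negative control and 3.52 after siRNA negative control. Most of its difference lay between the controls (0.59), while the treated arrays were 0.19 and 0.23 below the nearer control, with an SD between spots of 0.037 to 0.047. NFKBIB, the gene of IkB-beta, went the other way, at -3.22 and -3.27 on the treated arrays and -3.59 and -3.68 on the controls. NFKBIE, the gene of IkB-epsilon, was at most 0.35 from either control, and BCL3, a nuclear inhibitor-like coactivator, lay between 2.92 and 3.12. The 5 inhibitors had no common direction.

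The IKK complex differed mainly through the siRNA negative control. CHUK, the kinase IKK-alpha, was 0.74 after Pre-miR-376c, 1.01 after siGRB2 and 0.98 after Pre-miR negative control, but 1.94 after siRNA negative control. It was 2.30-fold lower after Pre-miR-376c than with that control and 1.19-fold lower than after Pre-miR negative control. IKBKG, the regulatory subunit NEMO, was 1.03 after Pre-miR-376c, 1.02 after Pre-miR negative control and 1.46 after siGRB2, but 0.37 after siRNA negative control. The 2.14-fold difference of siGRB2 from its own control was 1.36-fold against Pre-miR negative control. IKBKB, the kinase IKK-beta that acts in the canonical pathway, lay between 0.43 and 0.59 on all arrays, a range within the scanner error of a difference.

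**Figure D2:**
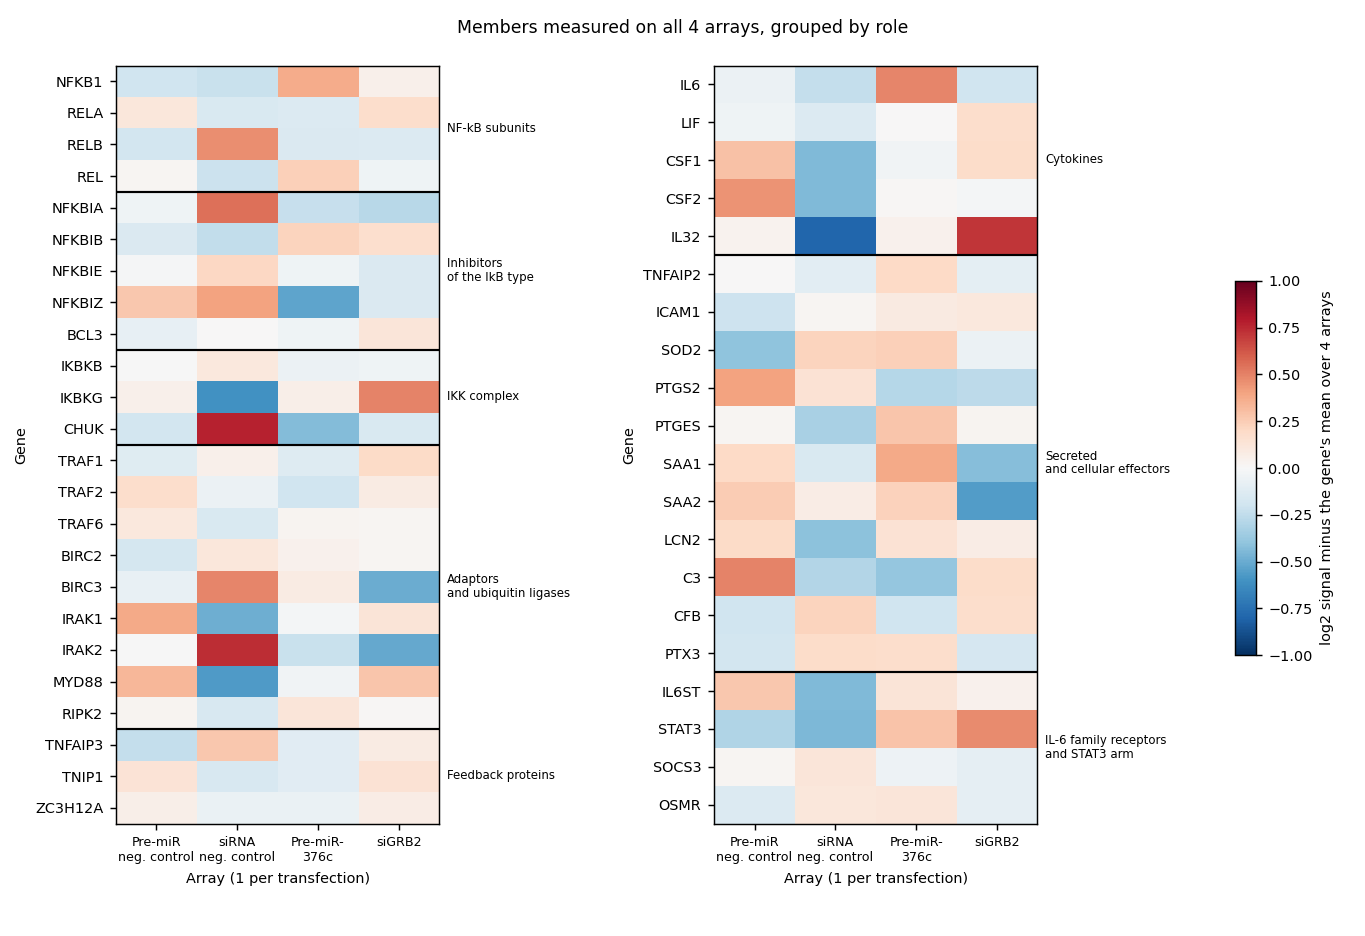
Log2 signal of each of the 44 members on each array minus the gene's mean over the 4 arrays (colour, from -1 to 1), in 8 role groups. The siRNA negative control has the deepest colours in many rows, among them CHUK, IRAK2, NFKBIA, IKBKG and IL32. It lies at least 1.5-fold outside the range of the other 3 arrays for 13.6% of the members and 12.3% of all genes.

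Among the 9 adaptors and ubiquitin ligases, IRAK2 was the one with the groups apart. IRAK2, a kinase-like adaptor of IL-1 and Toll-like receptors, was -0.47 after Pre-miR-376c and -0.76 after siGRB2, against -0.26 after Pre-miR negative control and 0.49 after siRNA negative control. The 2.38-fold lower value of siGRB2 against its own control was 1.41-fold lower against Pre-miR negative control. BIRC3, the ligase cIAP2 and itself an NF-kB target, was 2.92 after siGRB2, 3.34 after Pre-miR negative control, 3.50 after Pre-miR-376c and 3.90 after siRNA negative control. MYD88, the adaptor that IL-1 and most Toll-like receptors share, was 1.38 after Pre-miR-376c, 1.70 after siGRB2, 1.75 after Pre-miR negative control and 0.85 after siRNA negative control. For the kinase IRAK1 the order was the same, with 1.98 and 2.12 on the treated arrays and 2.37 on the array of Pre-miR negative control, 0.87 above siRNA negative control. For MYD88 and for the mean of the 2 IRAK1 probes, the treated arrays lay between the controls. The brighter IRAK1 probe read 3.15 after Pre-miR-376c, 3.21 after siGRB2, 3.35 after Pre-miR negative control and 3.18 after siRNA negative control. On that probe Pre-miR-376c was below both controls, by -0.03 for siRNA negative control.

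The other adaptors moved less. TRAF1, TRAF6, BIRC2 (the ligase cIAP1) and RIPK2 (the kinase of the NOD receptors) differed by at most 0.32 in any pair of arrays. TRAF2, the adaptor of TNF receptors, cannot be given a direction: its 2 probes read -0.77 and 1.04 for siGRB2 minus siRNA negative control. The feedback proteins TNFAIP3 (A20, a ubiquitin-editing enzyme), TNIP1 (a partner of A20) and ZC3H12A (Regnase-1, a nuclease for cytokine mRNAs) differed from each control by 0.38 or less. TNFAIP3 was highest after siRNA negative control (-0.20) and lowest after Pre-miR negative control (-0.71).

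Of the cytokines, IL6 stood out after Pre-miR-376c and IL32 after siGRB2. IL6, the best known NF-kB cytokine, was -0.38 after Pre-miR-376c, against -0.93 after Pre-miR negative control, -1.07 after siGRB2 and -1.11 after siRNA negative control. It was 1.47-fold and 1.65-fold above the controls after Pre-miR-376c, and the SD between its 10 spots was 0.026 to 0.060. With siGRB2 it lay between the controls. IL32, a pro-inflammatory cytokine, was 2.06 after siGRB2, 1.39 after Pre-miR-376c, 1.37 after Pre-miR negative control and 0.55 after siRNA negative control. It was 2.85-fold and 1.61-fold above the controls after siGRB2, and each of its 2 probes gave the same order for these 2 differences (1.78 and 1.24 against siRNA negative control, 0.64 and 0.73 against Pre-miR negative control). With Pre-miR-376c it differed by 0.01 from its own control.

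LIF, a cytokine of the IL-6 family, lay between 0.03 and 0.34 and was highest after siGRB2. The colony stimulating factors CSF1 and CSF2, which act on macrophages and granulocytes, were both lowest after siRNA negative control (-3.65 and -1.06) and highest after Pre-miR negative control (-2.91 and -0.17), with both treated arrays in between. For CSF1 this is the order of the mean of 2 probes. Its brighter probe was highest after siGRB2 (-2.55, against -2.72 after Pre-miR negative control). CSF3, the granulocyte factor, was well above background on 1 array only. By 1 of its 2 probes that array, Pre-miR negative control, read at least 5.28 times Pre-miR-376c and at least 5.39 times siGRB2. It was not well above background after siRNA negative control either, and its other probe was so on no array, which leaves a single spot behind these bounds. LIF and CSF1 each had 1 further probe below that limit on at least 1 array, which is left out of their values. The CSF1 probe left out, with 1 spot, was well above background after siGRB2 and Pre-miR negative control only. On it siGRB2 read at least 3.08 times siRNA negative control, and its log2 value was 1.88 above Pre-miR negative control.

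The effectors had patterns that differed from gene to gene. PTGS2, the inducible cyclooxygenase COX-2, was -5.16 after Pre-miR-376c and -5.14 after siGRB2, against -4.48 after Pre-miR negative control and -4.73 after siRNA negative control. Its 10 spots had an SD of 0.075 to 0.15, larger than for the other member probes with 10 spots, and the scanner error on its differences was 0.25 to 0.27. PTGES, the prostaglandin E synthase one step further on, was -5.02 and -5.27 on the treated arrays and -5.28 and -5.62 on the controls, so it differed from the nearer control by only 0.01 after siGRB2.

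SAA1 and SAA2, serum amyloid A proteins of the acute phase, were lowest after siGRB2. SAA1 was 3.74 after siGRB2, 4.01 after siRNA negative control, 4.37 after Pre-miR negative control and 4.54 after Pre-miR-376c. SAA2 was 0.63 after siGRB2 and 1.27, 1.45 and 1.42 on the same 3 arrays in that order, and both of its probes were lower after siGRB2 than with each control (-0.88 and -0.39, -0.67 and -0.97). The 2 genes are nearly identical in sequence, so their probes may read each other and they are not counted as separate evidence. Between the treatments, siGRB2 was 0.80 (SAA1) and 0.79 (SAA2) below Pre-miR-376c.

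Complement C3 was -0.05 after Pre-miR-376c, 0.84 after Pre-miR negative control, 0.52 after siGRB2 and 0.05 after siRNA negative control. Its difference of -0.89 for Pre-miR-376c minus Pre-miR negative control, the largest among the 44 members measured on all 4 arrays, was -0.10 against the other control. SOD2, the mitochondrial superoxide dismutase, was 1.35 after Pre-miR-376c and 0.71 after Pre-miR negative control, but 1.33 after siRNA negative control, so that it too differed from one control only. ICAM1, an adhesion molecule for leukocytes, was 1.21 and 1.23 on the treated arrays and 0.91 and 1.14 on the controls. The siderophore-binding protein LCN2 was lowest after siRNA negative control (0.46) and between 0.95 and 1.07 elsewhere. Complement factor CFB, the pentraxin PTX3 and TNFAIP2 each differed by at most 0.43 from either control with either treatment.

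Of the genes of the IL-6 family arm measured on all 4 arrays, STAT3 was the only one past 1.5-fold from both controls. STAT3 is the transcription factor that gp130 receptors activate. Its log2 value was -1.65 after Pre-miR-376c and -1.47 after siGRB2, against -2.24 after Pre-miR negative control and -2.39 after siRNA negative control. It was 1.70-fold and 1.89-fold above the controls after siGRB2, and its 2 probes gave 0.76 and 0.78 against Pre-miR negative control and 1.13 and 0.71 against siRNA negative control. With Pre-miR-376c the probes gave 0.49 and 0.68 against Pre-miR negative control and 0.86 and 0.61 against siRNA negative control. All 8 of these probe differences were above 0, and the 2 controls differed by 0.15.

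SOCS3, the feedback inhibitor that STAT3 switches on, was 0.57 after Pre-miR-376c and 0.53 after siGRB2, against 0.64 and 0.74 on the controls, differences of at most 0.21. The receptors differed less clearly than STAT3. IL6ST, which encodes gp130 and has 7 probes, was lowest after siRNA negative control (-1.01) and between -0.53 and -0.31 elsewhere, and its probes disagreed in sign in all 4 treatment minus control differences. OSMR, the oncostatin M receptor, lay between -1.60 and -1.34. IL6R, the binding subunit of the IL-6 receptor, was not well above background after siRNA negative control, and the Pre-miR-376c array read at least 2.30 times that level and the siGRB2 array at least 1.44 times. On the other 3 arrays its log2 values were -5.12 after Pre-miR-376c, -5.56 after Pre-miR negative control and -5.80 after siGRB2, so that the treatments lay on different sides of that control. The difference of siGRB2 from it, -0.23, was smaller than its scanner error of 0.29, while that of Pre-miR-376c was 0.44 with an error of 0.26. One probe with 1 spot gave these values.

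There were 9 members with several probes measured. The agreement between probes limits what can be said of single genes. Probes of 1 gene pointed in opposite directions for 3 of these 9 genes in Pre-miR-376c minus Pre-miR negative control and for 2 of 9 in siGRB2 minus siRNA negative control. The count was 6 of 9 for Pre-miR-376c minus siRNA negative control and 3 of 9 for siGRB2 minus Pre-miR negative control. Beside TRAF2, IL6ST and RELA, the genes concerned were SAA2 and C3, IRAK1, CSF1 and IL32 in differences near 0 on at least 1 probe.

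The pathway has further genes outside the 47, and 62 of 75 such genes listed by function were measured. In the list for the chain from receptors to IKK, which also holds genes outside that chain such as NFKBID, 32 of 35 were measured. Of these, 1 (NFKBID) passed 2-fold in any treatment minus control difference. It did so after siGRB2 against siRNA negative control (6.75% of all genes in either direction). Its log2 difference was 1.02 there and 0.29 against Pre-miR negative control, with scanner errors of 0.31 and 0.24. Of 21 further NF-kB targets 17 were measured, and their median difference was below 0 in all 4 (-0.21 and -0.34 after Pre-miR-376c, -0.69 and -0.41 after siGRB2, Pre-miR negative control first). In the same order, all genes had medians of -0.02 and 0.06, and of 0.04 and 0.12. The list was made with earlier results of these data known. It holds IL1B and MMP9, which the authors had reported as lower with both treatments on these arrays. The counts below are thus partly set by that choice, and the medians may be. Against Pre-miR negative control, 2 of these 17 were at least 2-fold lower and 0 higher after Pre-miR-376c (IL1B and MMP9; 1.15% of all genes in either direction). With siGRB2 4 were lower (MMP9, IL1A, CXCL5 and S100A9) and 1 higher (CCL2; 0.934% in either direction). Against siRNA negative control, 2 were lower (IL1B and MMP9) and 1 higher (CCND1) after Pre-miR-376c (4.59%). With siGRB2 3 were lower than that control (IL1B, MMP9 and S100A9) and 2 higher (CCND1 and CCL2; 6.75%). The cytokine IL1B was -1.70 after Pre-miR-376c and -1.22 after siGRB2, against -0.30 and -0.04 on the controls. The matrix protease MMP9 was -3.50 and -3.36 against -2.32 and -2.05, and the cytokine IL1A was -2.82 and -2.86 against -1.84 and -2.02. The chemokine gene CCL2 went the other way, at -4.03 and -3.52 against -4.75 and -4.67. In the IL-6 family list (13 of 19 measured) the STAT target CISH was -1.81 after siGRB2 and between -3.26 and -2.86 on the other 3 arrays. The cell cycle gene CCND1 was 0.89 and 0.92 on the treated arrays, 0.51 after Pre-miR negative control and -0.15 after siRNA negative control.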

How the data were processed

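Gene expression was measured on 4 Agilent 1-colour arrays of a human 44 K design, 1 per transfection. For each array the authors deposited spot intensity values from Agilent Feature Extraction (version 10.7 per the labels), background-subtracted and detrended by that software, with flags for signal above background, saturation and outliers. A second deposited table holds 1 log2 value for each probe and array, which the authors obtained with GeneSpring GX after normalizing to the 75th percentile. That table matched the scanner values within 0.01, up to a constant per array, for 99.5% of the probes, so its scale and direction are known, and it served as an alternative only.

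Here, spots with an outlier flag (289 to 329 per array) were left out, and no spot was saturated. From the log2 processed intensities the 75th percentile of the 43118 non-control spots (a signal of 1727 to 2698) was subtracted, and spots of a probe and then probes of a gene were averaged. A probe with 10 spots counted as above background when more than 0.5 of them were. Detected probes numbered 21824 to 24133 per array, and all 4 arrays shared 1 slide and 1 scan. Accessions gave 25422 of 34127 probes 1 gene name through a RefSeq gene table (GRCh38.p14), whose coordinates were not applied to probes because the array headers state hg19. The members had 63 probes, of which 58 were measured on all 4 arrays.

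Values on all 4 arrays were to be given for members at least 1.5-fold from both controls or 2-fold in any treatment minus control difference (7 members). Others given in full were chosen after their values were seen. The members and lists were chosen with earlier results of these data known. With 1 array per condition no test was run, and the counts were set beside those of all genes. Every such comparison of a treatment uses the same 2 control arrays. The calculation was tested on simulated data. Python (3.11.15), numpy (2.4.6), pandas (2.3.3), R (4.3.3) and limma (3.58.1) were used. The alternatives were quantile normalization, a shift to the median, a percentile over detected probes, normexp (offset 50, on median intensity, followed by quantile normalization), the second deposited table, outlier spots included, every spot above background, no filter, the brightest probe, the median of probes, and 1.5-fold and 3-fold limits. That the counts of members on one side of both controls were recomputed under these was decided after seeing the data. For probes not above background a bound was set against the higher of the probe's own signal and the lowest detected signal of that array.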

Additional observations from a re-analysis of the deposited data

Results flagged for a closer look

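The 2 treatments lay on opposite sides of both negative controls, each by any amount, in 3 of the 44 members (6.82%) and in 9 of the 62 other pathway genes (14.5%), against 8.76% of all genes. The difference between the treatments was not tested, as there was 1 array per condition. Values are given for the 3 members and for CISH, the one of the 9 that is among the 3 highest or 3 lowest other pathway genes by the mean of the 4 treatment minus control differences. For SAA1 the log2 difference siGRB2 minus Pre-miR-376c was -0.80, with siGRB2 0.27 or more below and Pre-miR-376c 0.18 or more above the controls. For TRAF1 it was 0.32, and for ZC3H12A it was 0.14. In these 2 genes Pre-miR-376c lay within 0.01 of the nearer control, less than the scanner error of a difference (0.20). The siGRB2 array was also closer to its nearer control than that error, at 0.14 for TRAF1 and 0.01 for ZC3H12A. For CISH, a STAT target outside the 47 genes, it was 1.45, with siGRB2 at least 1.05 above and Pre-miR-376c at least 0.21 below the controls. For SAA1 and CISH too, Pre-miR-376c differed from the nearer control by less than the scanner error. The values were 0.178 against an error of 0.204 for SAA1, and -0.2068 against 0.2105 for CISH.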

How the results depend on the processing

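No setting turned the direction of a difference past 2-fold, and 101 summary values and 267 single differences of the 7 named members stayed within the technical spread or, for counts, within 1.5 times, while 29 and 13 moved. Medians below are of the members' log2 differences, and the summary values that moved were these. Pre-miR-376c minus siRNA negative control: the median (0.03) was 0.140 with quantile normalization, 0.133 with normexp, 0.096 with the percentile over detected probes and -0.133 with the shift to the median, and the count past 2-fold (1) was 2 with the deposited log2 values, the median of probes or no filter, 3 with the shift to the median, 11 at 1.5-fold and 0 at 3-fold. siGRB2 minus siRNA negative control: the median (0.13) was 0.053 with quantile normalization, 0.009 with normexp, 0.045 with the deposited values, 0.020 with the brightest probe and -0.156 with the shift to the median, and the count (3) was 5 with that shift or the deposited values, 12 at 1.5-fold and 0 at 3-fold. Against Pre-miR negative control, the median was 0.100 for Pre-miR-376c with the shift to the median and -0.097 for siGRB2 with normexp, and the counts (0 and 0) were 1 and 1 with no filter and 4 and 5 at 1.5-fold. From both controls, the counts (0 and 0) were 1 and 3 at 1.5-fold. The members higher on both treated arrays (8) were 4 with the shift to the median and 4 with normexp, which left 41 members. The shift to the median moved the median of all genes too, to 0.09 and -0.10 for Pre-miR-376c and -0.17 for siGRB2 minus siRNA negative control, so that the members minus all genes stayed at 0.01, -0.03 and 0.01. The cause of the other moves was not tested. NFKBIZ (Pre-miR-376c) and STAT3 (siGRB2) were past 1.5-fold from both controls in all 10 settings, and SAA2 and IL32 in all but normexp. Gained at that limit were STAT3 after Pre-miR-376c (quantile normalization, deposited values, brightest probe) and, after siGRB2, PTGS2 (quantile normalization, shift to the median) and BIRC3 (normexp). Naming probes by a gene name column was planned and was not run. No paired analysis was possible because only 1 array was made per transfection, and with 4 arrays in all every value has the precision of a single culture.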

Other observations

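Among the 62 measured genes of the pathway outside the 47, 5 more than those given with the report lay at least 1.5-fold from both negative controls with 1 or both treatments, a selection made after the values were seen. CXCL5, a chemokine for neutrophils, was 1.83 (log2 signal minus the array's 75th percentile) after Pre-miR-376c and 1.48 after siGRB2, against 2.49 with Pre-miR negative control and 2.42 with siRNA negative control, and so was lower on both treated arrays. TNFAIP8, a TNF-induced survival gene, was lower by that limit after Pre-miR-376c alone, at -0.66, against -0.37 after siGRB2 and -0.04 and 0.26 on the controls. IL1RAP, the shared subunit of the IL-1 receptor, was -0.59 after Pre-miR-376c and between 0.04 and 0.22 on the other 3 arrays. These are means of unlike probes, which for Pre-miR-376c gave -0.76 and -0.74 against Pre-miR negative control. Against siRNA negative control the same probes gave -1.05 and -0.21, the second close to its scanner error (0.20) and not past 1.5-fold. S100A9, a calgranulin, was -5.11 after siGRB2 and between -4.11 and -3.65 on the other 3 arrays. SOCS2, a feedback inhibitor of cytokine receptors, was 0.61 after siGRB2 and between -0.33 and -0.16 on the other 3 arrays. Of the 62 genes, 6 were lower and 1 higher by this limit after Pre-miR-376c, and 5 lower and 3 higher after siGRB2. The shares of all genes were 1.56% and 0.809%, and 0.919% and 1.28%. Those lower after each treatment include IL1B and MMP9, which the authors had already reported as lower on these arrays. None of these differences has a replicate.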
